A study of Mus musculus with 5 samples.

Results

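The regions described here are the open-chromatin peaks that flank the targeted Smc3 gene on mouse chromosome 19. They were chosen by position alone, as every peak on chromosome 19 (build mm10) from a boundary 10 Mb below the gene, that is toward lower coordinates, to the last peak of the chromosome, which ends at 61331580 bp. Smc3 itself and 20 kb on each side were left out. In lists cut to the same length the 5 libraries gave 471 flank regions among 56747 regions of the genome, and the comparison stretch, chromosome 19 below that boundary, held 1089. In the full lists the flank held 1680 of 232104 regions. The question is whether a heterozygous Smc3 allele came with a local difference in accessibility along its own chromosome.

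Peaks were called from bulk ATAC-seq, in which a transposase inserts adapters into open DNA, on lineage-depleted bone marrow that the labels call HSPC (haematopoietic stem and progenitor cells). The Smc3-het group has 2 libraries, from mice with genotype Mx1-Cre+, inv(16);Smc3 D/+, where the labels do not explain D, and the Smc3-wt group has 3 libraries of genotype Mx1-Cre+, inv(16);Smc3 +/+. PIPC, which mimics viral RNA and through interferon turns Mx1-Cre on, was given in both genotypes, and thus Cre, the inv(16) allele and the PIPC exposure were shared by them. The Mx1 promoter answers interferon in many cell types and is not limited to blood cells, and neither the age of the mice nor whether each library is a separate mouse is given in the sources used here, so a p-value here reflects variation among 5 libraries that could be technical.

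Cohesin is a ring of the subunits SMC1, SMC3, RAD21 and a STAG protein that extrudes DNA loops until it is held at sites bound by CTCF, a zinc-finger protein. In this way it shapes contacts between promoters and enhancers, and in blood progenitors a partial loss of cohesin is known to shift the balance between self-renewal and differentiation. A gene-targeted allele is inherited together with the DNA next to it, so a difference between genotypes that is strongest close to the targeted gene and fades with distance is the pattern that linkage would give.

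Depth is known here only through the background coverage of each library, in fragments per base. It was 3.59 in Smc3-het replicate 1 and 2.92 in replicate 2, while Smc3-wt replicates 1 to 3 had 2.74, 1.93 and 3.02. Values for the 5 libraries are given in this order throughout. The lists themselves ran from 26885 to 121224 peaks and every Smc3-wt list was longer than both Smc3-het lists. Every list was therefore cut to its 26885 strongest peaks, here called an equal-size list, before peak sets were compared. Of 8 HSPC marker genes, 6, 4, 6, 5 and 5 had a peak within 1 kb of an end, and of 9 mature-lineage markers 2, 1, 1, 1 and 1 had one. Of 4 stromal and endothelial markers 2, 1, 0, 2 and 2 had one, and of 4 markers of other organs 0, 0, 0, 1 and 1. Cd3e, Cd79a, Ms4a1, Cd8a, Itgam and Ly6g had none, and neither did Mpo, a marker of the progenitor list, in the equal-size lists. In full lists the counts were 6, 4, 7, 7 and 8 for HSPC markers and 2, 2, 1, 5 and 4 for mature-lineage markers. In bulk data, fewer cells of a type with an open region and less opening per cell cannot be told apart.

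Some promoters next to the targeted gene are shown first, because a linked difference would be seen there first. Windows of Xpnpep1, Shoc2 and another Smndc1 start also lie within 1 Mb of Smc3 under a peak in 5 of 5 equal-size lists. They are not printed. Each window runs from 250 bases before to 50 bases after the transcript start and comes from RefSeq (GRCm38.p6, the same build as mm10), printed on the strand of the gene. Capitals mark matches, on either strand, to short motif words. The word searched for ETS factors was GGAAGT. For RUNX factors it was TGTGGT, for factors of the GATA family it was AGATAA, and for the CTCF core it was CNAGGGGGC. Matches of different words that overlap were all kept. The first 5 windows lie within 1 Mb of Smc3 and had a peak in 5 of 5 equal-size lists. The Grk5 window carries a CTCF core word at one of the strongest regions far from Smc3. Mfsd13a was the only flank gene with a gene-end peak in both Smc3-het equal-size lists and no Smc3-wt equal-size list.
Add3 promoter window, chr19:53142506-53142805, plus strand: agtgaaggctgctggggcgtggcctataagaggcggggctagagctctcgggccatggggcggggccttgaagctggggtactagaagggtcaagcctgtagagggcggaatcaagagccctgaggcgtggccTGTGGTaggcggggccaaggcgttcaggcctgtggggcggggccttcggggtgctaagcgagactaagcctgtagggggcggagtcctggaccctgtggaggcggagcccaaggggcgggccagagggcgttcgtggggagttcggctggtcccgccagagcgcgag
Smndc1 promoter window, chr19:53390585-53390884, minus strand: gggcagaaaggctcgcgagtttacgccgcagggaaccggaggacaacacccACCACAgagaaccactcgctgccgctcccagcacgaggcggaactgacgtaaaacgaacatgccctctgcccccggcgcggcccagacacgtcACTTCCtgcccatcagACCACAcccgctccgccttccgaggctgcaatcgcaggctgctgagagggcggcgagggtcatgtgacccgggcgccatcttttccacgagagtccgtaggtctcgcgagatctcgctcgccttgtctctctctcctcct
Dusp5 promoter window, chr19:53528895-53529194, plus strand: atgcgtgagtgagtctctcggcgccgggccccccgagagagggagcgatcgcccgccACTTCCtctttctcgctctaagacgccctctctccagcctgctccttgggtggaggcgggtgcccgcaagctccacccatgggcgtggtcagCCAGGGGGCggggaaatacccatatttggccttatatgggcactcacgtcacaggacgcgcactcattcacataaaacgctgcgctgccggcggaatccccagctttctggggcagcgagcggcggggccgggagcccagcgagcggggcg
Pdcd4 promoter window, chr19:53903101-53903400, plus strand: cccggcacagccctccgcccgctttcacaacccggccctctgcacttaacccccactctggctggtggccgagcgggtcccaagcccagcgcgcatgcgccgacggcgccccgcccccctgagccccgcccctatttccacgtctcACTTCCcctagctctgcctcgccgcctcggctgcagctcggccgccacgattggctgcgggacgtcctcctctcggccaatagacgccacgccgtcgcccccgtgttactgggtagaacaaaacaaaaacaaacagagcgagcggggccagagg
Bbip1 promoter window, chr19:53944578-53944877, minus strand: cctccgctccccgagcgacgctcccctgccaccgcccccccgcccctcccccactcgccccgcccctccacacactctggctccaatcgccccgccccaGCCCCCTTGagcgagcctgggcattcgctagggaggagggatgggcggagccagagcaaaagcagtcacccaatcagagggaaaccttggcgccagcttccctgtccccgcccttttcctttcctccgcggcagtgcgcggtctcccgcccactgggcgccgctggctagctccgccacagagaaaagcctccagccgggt
Grk5 promoter window, chr19:60889499-60889798, plus strand: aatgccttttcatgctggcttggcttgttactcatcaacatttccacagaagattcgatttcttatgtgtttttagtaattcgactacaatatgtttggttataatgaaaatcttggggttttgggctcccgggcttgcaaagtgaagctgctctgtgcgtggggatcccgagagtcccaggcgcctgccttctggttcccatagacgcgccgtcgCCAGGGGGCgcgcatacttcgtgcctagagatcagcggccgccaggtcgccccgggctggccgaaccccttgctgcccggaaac
Mfsd13a promoter window, chr19:46356630-46356929, plus strand: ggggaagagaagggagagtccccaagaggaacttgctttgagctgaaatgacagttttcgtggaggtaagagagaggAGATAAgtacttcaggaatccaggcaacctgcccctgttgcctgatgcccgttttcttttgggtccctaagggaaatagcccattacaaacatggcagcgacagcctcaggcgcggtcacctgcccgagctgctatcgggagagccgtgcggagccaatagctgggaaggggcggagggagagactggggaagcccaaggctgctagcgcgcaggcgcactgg

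Among these, the Dusp5 window holds an ETS word and a CTCF core word, the Smndc1 window an ETS word and 2 RUNX words, and the Mfsd13a window a GATA word and none of the others. Of 169 promoter windows of 126 flank genes, 23.7% held the ETS word, against 24.8% of all 21263 windows, and 13.6% the RUNX word, against 15.0%. The GATA word was in 9.47% of flank windows against 9.65%, and the AP-1 word (TGACTCA) in 2.96% against 4.66%. The CTCF core word was in 13 flank windows, 7.69%, against 3.41% of all windows and 2.68% of windows on the rest of chromosome 19. Overlapping windows can hold the same word, as those of Bbip1 and Shoc2 do, so windows are not separate sites. Flank windows under a peak in 5 of 5 lists numbered 77, of which 32.5% held the ETS word and 11.7% the CTCF core word. The same shares were 31.3% and 4.77% in the 8261 such windows of the genome. Matches describe the letters in these windows and were not tested as binding sites, and the flank windows were richer in G and C, with a median of 60.0% against 56.3%.

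The targeted gene itself was open at its start in every library. The region chr19:53599570-53601192, over the Smc3 start and left out of all counts that follow, had a summit pileup, the number of fragments over its highest base, of 68, 94, 157, 136 and 247. A peak list does not show whether an exon is deleted, so this does not check the genotype. Just outside the left-out window, the last region below was chr19:53557038-53557502 near Dusp5, called in Smc3-het replicate 1 alone with a pileup of 20. The first region above was chr19:53676534-53676925 in Rbm20, with a pileup of 18 in Smc3-het replicate 1, its only equal-size list. At the other edge, chr19:43599964-43600260 near Nkx2-3 was the first region inside the flank and was called in Smc3-wt replicate 2 alone, and chr19:43583276-43584111 was the last outside, called in 2 libraries.

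The share of chromosome 19 peaks that fell in the flank did not separate the genotypes. The flank held 237, 241, 220, 213 and 219 peaks of the equal-size lists, which is 28.0%, 31.3%, 29.9%, 29.9% and 28.4% of the peaks of the chromosome. The lowest share had a Wilson 95% interval of 25.1 to 31.1% and the highest one of 28.2 to 34.7%, and the intervals, which cover counting error only, overlapped. The 2 Smc3-het libraries were the lowest and the highest of the 5, so the groups overlapped fully. The means were 29.7% ± 2.37 (SD, n = 2) and 29.4% ± 0.88 (SD, n = 3), a difference of 0.282 percentage points (p = 1, two-sided exact permutation test over the 10 splits of 5 libraries, whose smallest possible p is 0.2). No test of this kind with 2 against 3 libraries can reach 0.05.

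Set against the peaks of all other autosomes in place of chromosome 19, the flank share in the Smc3-het libraries was 0.921% and 0.941%, and in the 3 Smc3-wt libraries it was 0.855%, 0.833% and 0.853%, so that both Smc3-het libraries lay above all 3 Smc3-wt libraries (p = 0.2, exact permutation test, the smallest possible). Measured in the same way, the rest of chromosome 19 took 2.34% and 2.04% against 1.99%, 1.93% and 2.13%. That stretch leaned the same way with overlapping groups (p = 0.4, exact permutation test). In full lists both stretches were higher in Smc3-het without overlap, the flank with 0.921% and 0.907% against 0.702%, 0.799% and 0.787%, and the rest with 2.34% and 1.98% against 1.65%, 1.77% and 1.72% (p = 0.2 for each, exact permutation test). The difference between the 2 stretches is the share of chromosome 19 peaks given above.

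**Figure D1:**
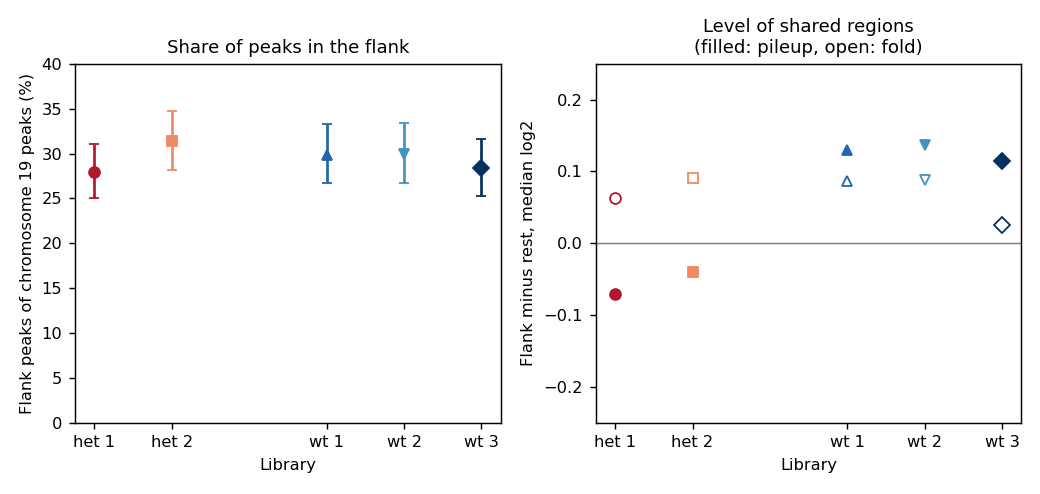
Left, share of chromosome 19 peaks that lie in the flank for each library, with Wilson 95% intervals; right, median log2 level of flank regions minus that of regions on the rest of chromosome 19, over regions shared by 5 of 5 libraries, as summit pileup (filled) and as the authors' fold enrichment (open). The shares lie between 28.0% and 31.3% in no order by genotype, and the pileup difference is below 0 in both Smc3-het and above 0 in all 3 Smc3-wt libraries while the fold values overlap.

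The strength of shared flank regions differed between genotypes in one measure and not in another. Over the 109 flank regions found in 5 of 5 libraries the median summit pileup was 11.1, 12.3, 21.2, 22.8 and 30.5 times background, and over the 277 shared regions of the rest of chromosome 19 it was 11.7, 12.7, 19.3, 20.7 and 28.1 times. Both stretches were thus at a lower level over background in the Smc3-het libraries. The same held beyond chromosome 19, since the 11632 shared regions of the other autosomes stood at 11.7, 14.4, 25.2, 26.9 and 33.8 times. The flank minus the rest was -0.07 and -0.04 on the log2 scale for Smc3-het against 0.13, 0.14 and 0.11 for Smc3-wt. The groups did not overlap, and the difference was -0.18 log2 (means -0.06 ± 0.02, SD, n = 2, and 0.13 ± 0.01, SD, n = 3; p = 0.2, exact permutation test, the smallest possible). With the authors' fold enrichment, the ratio of pileup to local background, the same difference was 0.01 log2 (p = 0.8, exact permutation test), and set against all other autosomes in place of chromosome 19 it was 0.07 log2 with the opposite sign (p = 0.4, exact permutation test). With means in place of medians it was -0.03 log2 and the groups overlapped (p = 0.6, exact permutation test), and in half-length lists it was -0.09 log2 (p = 0.2, exact permutation test).

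By distance from the targeted gene the level difference was uneven. The 22 shared regions within 2 Mb of Smc3 were -0.33 and 0.11 log2 from the rest of the chromosome in Smc3-het against 0.35, 0.18 and -0.11, and here the groups overlapped. In the first megabase below Smc3, 11 shared regions stood at -0.07 and 0.15 against 0.68, 0.46 and 0.18 log2. In the first megabase above it, 5 shared regions stood at -0.64 and 0.18 against 0.13, -0.19 and -0.46 log2, and overlapped. From 5 to 10 Mb above Smc3, 22 shared regions stood at 0.15 and 0.28 against 0.78, 0.75 and 0.53 log2. The window just below the gene and this far window were lower in the 2 Smc3-het libraries than in every Smc3-wt library, by 0.40 and 0.47 log2, and both reached only the smallest possible p of 0.2 (exact permutation test; adjusted p = 0.6 over the 6 windows that hold shared regions). The 58 shared regions 5 to 10 Mb below Smc3 differed by 0.02 log2 (p = 1, exact permutation test).

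Single shared regions are easiest to read against the other shared regions of their own library, as log2 pileup minus the library's median over the 12321 regions found in 5 of 5 libraries. Over all such regions of the genome, 16.6% were higher in both Smc3-het libraries than in every Smc3-wt library and 22.1% were lower. Of the 109 flank regions 30 were higher (27.5%) and 13 lower (11.9%), and of the 277 on the rest of chromosome 19, 31.8% were higher and 11.2% lower. The flank shares were thus near those of the rest of its chromosome. Within 2 Mb of Smc3, 4 of 22 were higher and 3 lower. Shared regions stood at a lower median level over background in Smc3-het, so a region called higher here need not be higher over background.

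Next to the gene these regions went both ways. The region 20.1 kb from Xpnpep1, which encodes an aminopeptidase, stood at -0.23 and -0.22 in Smc3-het against 0.33, 0.11 and 0.14, lower in both. The region over the Xpnpep1 start stood at 0.73 and 0.10 against 1.02, 0.96 and 1.04, also lower in both. A region 33.6 kb from Smndc1, a splicing factor gene, stood at -0.31 and -0.04 against -1.02, -0.35 and -1.41, higher in both Smc3-het libraries. The window over the Dusp5 start, printed above, stood at 0.67 and 0.22 against 0.30, -0.06 and -0.39, and overlapped. In Rbm20, chr19:53801787-53802583 stood at -0.66 and 0.00 against -0.72, -1.03 and -0.70, again higher in both. Dusp5 encodes a nuclear phosphatase of ERK kinases, and Rbm20 a splicing factor best known from heart muscle.

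Few flank regions were present in one genotype and absent from the other. In equal-size lists 3 of 471 flank regions (0.637%) were in every Smc3-wt list and no Smc3-het list, against 1.91% of regions over the genome and 2.02% on the rest of chromosome 19. In the other direction 8 flank regions (1.70%) were in both Smc3-het lists and no Smc3-wt list, against 1.08% over the genome and 0.918% on the rest of the chromosome. In full lists the flank counts were 32 of 1680 (1.90%) in Smc3-wt only, with 2.44% over the genome, and 0 in Smc3-het only, with 0.0745% over the genome. These flank counts were not tested, since 5 libraries are too few to test a single region.

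The 3 Smc3-wt regions all lay above Smc3 and had no Smc3-het peak even in the full lists. For Smc3-het replicate 1 the full list is the equal-size list, so only replicate 2, with 36467 peaks, could have added one there. The strongest of the 3 regions was chr19:55283898-55284546 in the body of Acsl5, whose enzyme activates fatty acids, 1.64 Mb from Smc3. It had a pileup of 55, 48 and 72 in the 3 Smc3-wt libraries. The next, chr19:55859915-55860992 in Tcf7l2, a transcription factor of Wnt signalling, had 25, 19 and 28. The last, chr19:60144275-60145027, 52.1 kb from Fam204a, had 27, 18 and 34. In rank these differed widely, since the Acsl5 region was in the upper part of every list that held it, at or above the 73.7th percentile by -log10 p, and the Fam204a region was at the 7.49th percentile in its weakest list.

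Each of the 8 Smc3-het regions had a peak in 1 or more full Smc3-wt lists, which are the longest lists, at 65880 to 121224 peaks. By −log10 p their weaker Smc3-het rank ran from the 1.53rd percentile, in Sufu, to the 50.2nd, in Gfra1. Closest to the targeted gene was chr19:53502870-53503380, 25.8 kb from Dusp5, with Smc3-het pileups of 19 and 20, while Smc3-wt replicate 2 had 14 and replicate 3 had 22. In Rbm20, chr19:53800007-53800835 had Smc3-het pileups of 21 and 23, against 20, 19 and 35 in the full Smc3-wt lists. At the Mfsd13a start, chr19:46356335-46357152 had Smc3-het pileups of 28 and 17, while Smc3-wt replicate 2 had 16 and replicate 3 had 21. Over background the Dusp5 site stood at 5.29 and 6.85 times in Smc3-het and 7.25 and 7.28 times in these 2 Smc3-wt libraries, higher in the latter, and the Mfsd13a site at 7.80 and 5.82 against 8.29 and 6.95 times, which overlapped. Where a Smc3-wt list held a peak at one of the 8 regions, that peak ranked outside the 26885 strongest. The remaining regions lay in Gfra1, Sh3pxd2a and Sufu and near Gsto2 and Fam160b1.

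**Figure D2:**
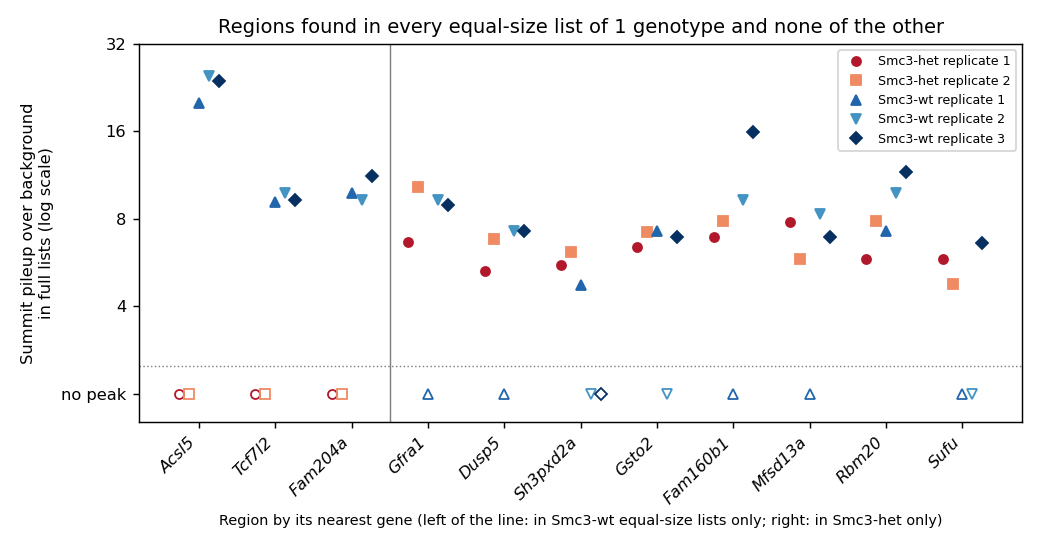
Summit pileup over background (log axis) in the full list of each library for the 3 regions in Smc3-wt equal-size lists only and the 8 in Smc3-het equal-size lists only, named by nearest gene; open symbols at the bottom mark a library with no peak. The 3 regions on the left have no Smc3-het peak, and each of the 8 on the right has a peak in 1 or more Smc3-wt libraries. The full Smc3-wt lists are longer than the full Smc3-het lists, and that of Smc3-het replicate 1 is its equal-size list.

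Regions shared by all libraries lay at gene ends more often than regions found once. Of the 471 regions 109 (23.1%) were found in 5 of 5 libraries, against 25.4% on the rest of chromosome 19 and 21.7% over the genome, and 234 were found in 1 library. Of the 109, 60.6% touched 1 kb around a gene end, with a median width of 1318 bp, whereas 5.98% of the 234 did, with a median width of 386 bp. A region spans all peaks merged into it, so one found in more libraries tends to be wider by construction. A wider region also touches a gene end more easily, and the part of this in both contrasts was not tested. By far the highest pileup was at chr19:61331278-61331580, the last region of the chromosome and 102.8 kb from Csf2ra. It was 1765, 2530, 2647, 1624 and 3495, or 9.08 to 20.2 times the next flank peak of the same library. The fold enrichment of this region over local background was 36.6, 35.2, 37.5, 37.7 and 37.5, and whether it is open chromatin was not tested. Next by pileup came the start of Slc25a28, which encodes the mitochondrial iron carrier mitoferrin 2, at chr19:43674662-43675974 with 142, 125, 270, 164 and 385. The region over an Add3 start, the gene of the membrane skeleton protein gamma-adducin, had 135, 90, 187, 156 and 247. The shared Bbip1 and Shoc2 start had 103, 117, 143, 130 and 255, where Bbip1 encodes a subunit of the ciliary BBSome and Shoc2 a scaffold between RAS and RAF. These genes were open in all 5 libraries, as were the starts of Rab11fip2, Grk5, Sfr1, Smndc1 and Entpd7 and a region 16.6 kb from Csf2ra.

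Gene ends of the flank were open in similar numbers in the 5 libraries. Of 147 protein-coding genes, 86, 87, 85, 82 and 87 had a peak within 1 kb of either end, 73 in all 5 libraries and 50 in none. The share above that of the rest of chromosome 19 differed by 0.170 percentage points between genotypes (p = 0.8, exact permutation test). Mfsd13a was the only flank gene with a gene-end peak in both Smc3-het equal-size lists and no Smc3-wt equal-size list, against 0.693% of 12694 genes over the genome. No flank gene had the reverse, against 0.937%. Peaks at gene ends made up 34.2% and 35.3% of flank peaks against 34.5%, 35.2% and 35.6%. Peaks in gene bodies made up 41.8% and 41.1% against 38.6%, 35.2% and 37.9%, and peaks between genes 24.1% and 23.7% against 26.8%, 29.6% and 26.5%. Gene-body and intergenic shares thus did not overlap between genotypes, at the smallest possible p of 0.2 (exact permutation test; adjusted p = 0.3 over the 3 classes), and in full lists the gene-body difference had the opposite sign, -4.26 in place of 4.18 percentage points. Median peak width in the flank minus that on the rest of the chromosome differed by 3.92 bp (p = 1, exact permutation test).

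Along the flank, the peaks fell in islands. Below Smc3 a dense block from 44 to 48 Mb was followed by a stretch from 48 to 53 Mb with 0 to 3 peaks per 1 Mb bin in every library, and the bin that holds Smc3 was dense again with 37, 35, 31, 30 and 33 peaks. Of 18 flank bins, 4 had more peaks in both Smc3-het libraries than in every Smc3-wt library, against 9.93% of bins over the genome, and 1 had fewer, against 12.8%. The bin of Smc3 was one of the 4. The others were 45 to 46 Mb with 27 and 28 against 20, 17 and 23 peaks, 46 to 47 Mb with 40 and 36 against 27, 24 and 32, and 48 to 49 Mb with 2 and 3 against 1, 1 and 1. The bin that was lower was 60 to 61 Mb, with 16 and 17 against 32, 19 and 22.

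Gene-rich bins leaned this way beyond the flank as well. Of the autosomal bins with 10 or more protein-coding genes, 17.9% of 744 had more peaks in both Smc3-het libraries, and in the flank 3 of 6 such bins did. The share of autosomal peaks that lay in gene-rich bins was 60.0%, 54.1%, 54.0%, 51.8% and 54.3%, and Smc3-het replicate 1 stood apart here. Its part in the flank counts was not tested beyond leaving it out. In full lists 14 of 18 flank bins had fewer peaks in Smc3-het, against 84.8% of bins over the genome.

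**Figure D3:**
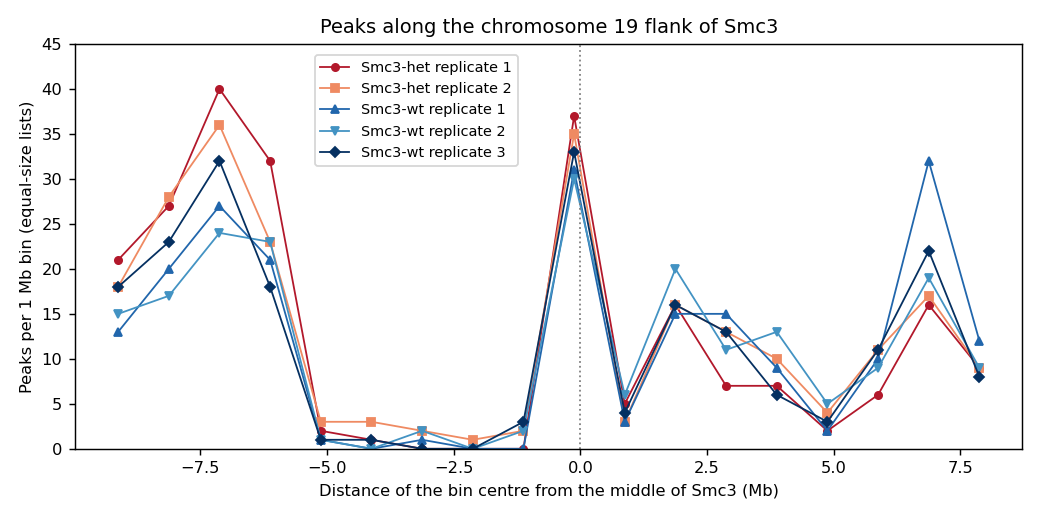
Peaks per 1 Mb bin of the equal-size lists against the distance of the bin centre from the middle of Smc3 (dotted line), 1 line per library. Both Smc3-het lines run above all Smc3-wt lines at about 7 and 8 Mb below the gene. They do so more narrowly at about 5 Mb below it and in the bin that holds Smc3. Both Smc3-het lines run below all Smc3-wt lines at about 7 Mb above the gene, and the 5 lines lie close together from 1 to 2 Mb above it.

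In the windows close to the gene the peak shares of the genotypes overlapped. Within 1 Mb below Smc3 the share of chromosome 19 peaks was 2.95%, 3.12%, 2.99%, 2.81% and 3.50%, a difference of -0.06 percentage points between genotypes (p = 1, exact permutation test). Within 1 Mb above it was 2.01%, 1.95%, 1.63%, 2.39% and 1.42%, a difference of 0.17 (p = 0.8, exact permutation test). From 1 to 2 Mb above it was 1.42%, 1.43%, 1.09%, 1.40% and 1.42%, a difference of 0.12 (p = 0.4, exact permutation test) that fell to 0.0089 without Smc3-wt replicate 1. From 1 to 5 Mb below Smc3 the windows held 0 to 7 peaks per library and allow no statement.

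Farther out the 2 sides went opposite ways. From 5 to 10 Mb below Smc3 the Smc3-het lists held 130 and 113 peaks and the Smc3-wt lists 90, 86 and 99, which is 15.3% and 14.7% against 12.2%, 12.1% and 12.8% of chromosome 19 peaks. The groups did not overlap and differed by 2.65 percentage points (means 15.0% ± 0.46, SD, n = 2, and 12.4% ± 0.40, SD, n = 3; p = 0.2, exact permutation test, the smallest possible; adjusted p = 0.64 over the 8 windows). This was the sole window whose direction was kept at the smallest possible p in full lists (4.23), half-length lists (1.58), peaks with a -log10 q of at least 10 (3.05), gene-end peaks alone (1.48) and peaks away from gene ends (3.59). From 5 to 10 Mb above Smc3 the lists held 32 and 38 against 56, 40 and 42 peaks, or 3.78% and 4.94% against 7.60%, 5.62% and 5.44%. That difference of -1.86 points (p = 0.2, exact permutation test; adjusted p = 0.64) became 0.36 at a -log10 q of at least 10 and -1.17 without Smc3-wt replicate 1. From 2 to 5 Mb above, the shares of 2.24% and 4.03% against 4.21%, 5.06% and 3.50% overlapped, and the difference ran from -0.22 without Smc3-het replicate 1 to -2.01 without Smc3-het replicate 2.

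**Figure D4:**
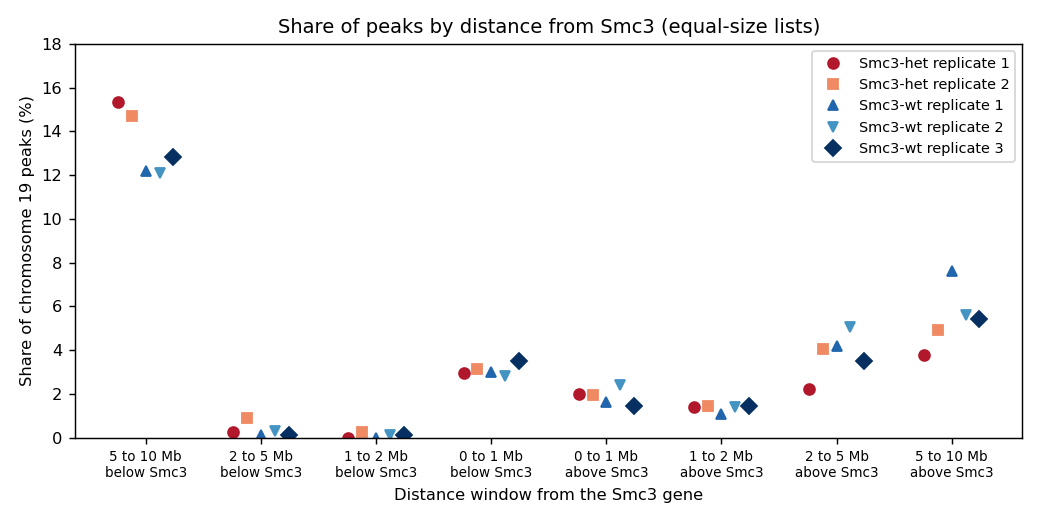
Share of chromosome 19 peaks (equal-size lists) in 8 distance windows on both sides of Smc3, 1 symbol per library. The genotypes lie apart only 5 to 10 Mb from the gene, with Smc3-het higher on the lower-coordinate side (15.3% and 14.7%) and lower on the other (3.78% and 4.94%), and overlap in each of the windows within 5 Mb.

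At the level of genes, a locus was taken as a gene with 20 kb on each side, so neighbouring loci share peaks. Of 135 flank loci with a peak, 18 (13.3%) had more peaks in both Smc3-het lists than in every Smc3-wt list, against 5.34% over the genome and 8.52% on the rest of chromosome 19, and 6 (4.44%) had fewer, against 4.62%. With 50 kb on each side the higher share was 13.4% in the flank and 12.8% on the rest of the chromosome, against 7.51% over the genome. In full lists no flank locus was higher, against 0.0713% over the genome, and 58 were lower (39.5%), against 44.7%.

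Of the 18 loci, 9 are consecutive genes from Gbf1 to Trim8 and are not separate observations. The 404 kb span chr19:46132509-46536805 that they cover held 23 and 22 Smc3-het peaks against 12, 10 and 14 in the Smc3-wt lists. Its genes include Nfkb2, the gene of the NF-kB precursor p100, with 3 and 3 against 2, 2 and 2 peaks at its locus. Psd, which encodes an exchange factor for the GTPase ARF6, had 5 and 6 against 4, 3 and 4. Sufu, an inhibitor of Hedgehog signalling, had 7 and 8 against 3, 3 and 5. Trim8, a ubiquitin ligase gene, had 6 and 5 against 3, 3 and 4. In full lists the span held 23, 24, 21, 29 and 36 peaks, and the genotypes overlapped. Without the span, 5 to 10 Mb below Smc3 held 13.0% and 12.2% of the remaining chromosome 19 peaks against 10.8%, 10.8% and 11.2%, so the rest of that window leaned the same way. The span was singled out after its counts were seen and was not tested.

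Of the 9 shared regions inside the span, 4 were higher relative to the other shared regions of their library in both Smc3-het libraries, at Gbf1, Psd, Actr1a and Trim8, against 16.6% over the genome and 27.5% in the flank. The other 5 overlapped. At the Psd and Fbxl15 start, chr19:46327927-46329478 stood at 0.83 and 0.44 log2 in Smc3-het against -0.20, -0.21 and -0.35. In Trim8, chr19:46502309-46504647 stood at 0.81 and 0.52 against -0.59, -0.25 and 0.18. Outside the span, Pcgf6, a polycomb subunit gene, had a region at -0.50 and -0.53 against -1.25, -1.21 and -1.61, the widest gap among the flank regions that were shared. Borcs7 had one at 0.29 and -0.26 against -1.11, -0.81 and -1.20. Summit pileup itself was 29 and 29 against 29, 22 and 33 at the Pcgf6 region, and overlapped. At the Borcs7 region it was 50 and 35 against 32, 29 and 44, and overlapped too. These 4 regions, singled out after their values were seen, lay 6.55 to 7.27 Mb below Smc3.

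The span also holds the gene of miR-146b at chr19:46342762-46342870, whose microRNA is known to dampen NF-kB signalling through the adaptors TRAF6 and IRAK1. Its mature strands are printed (RefSeq) with the seed, bases 2 to 8, in capitals. Its locus held 6 and 7 peaks in Smc3-het against 4, 3 and 4 in the equal-size lists, and 6, 7, 4, 6 and 8 in full lists, where the groups overlapped.
mmu-miR-146b-5p: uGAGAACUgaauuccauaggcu
mmu-miR-146b-3p: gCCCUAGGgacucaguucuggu

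The other loci with more peaks in Smc3-het lay singly or in small groups. They included Vti1a, a SNARE gene of vesicle fusion 1.67 Mb above Smc3, with 8 and 8 against 3, 5 and 4 peaks, and Slk, a kinase gene, with 2 and 2 against 1, 1 and 1. Lbx1, a homeobox gene of muscle and spinal cord, had 1 and 2 against 0, 0 and 0. Of the 6 loci with fewer peaks, Tcf7l2 had 2 and 4 against 6, 6 and 6, Acsl5 had 2 and 2 against 3, 3 and 3, and Fam204a had 1 and 1 against 3, 2 and 3. These 3 are the genes nearest to the 3 regions found in Smc3-wt lists alone. The Acsl5 and Tcf7l2 regions are themselves counted at these loci, so the 2 results are not separate observations. The Fam204a region, 52.1 kb from its gene, lies outside the locus counted here.

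**Figure D5:**
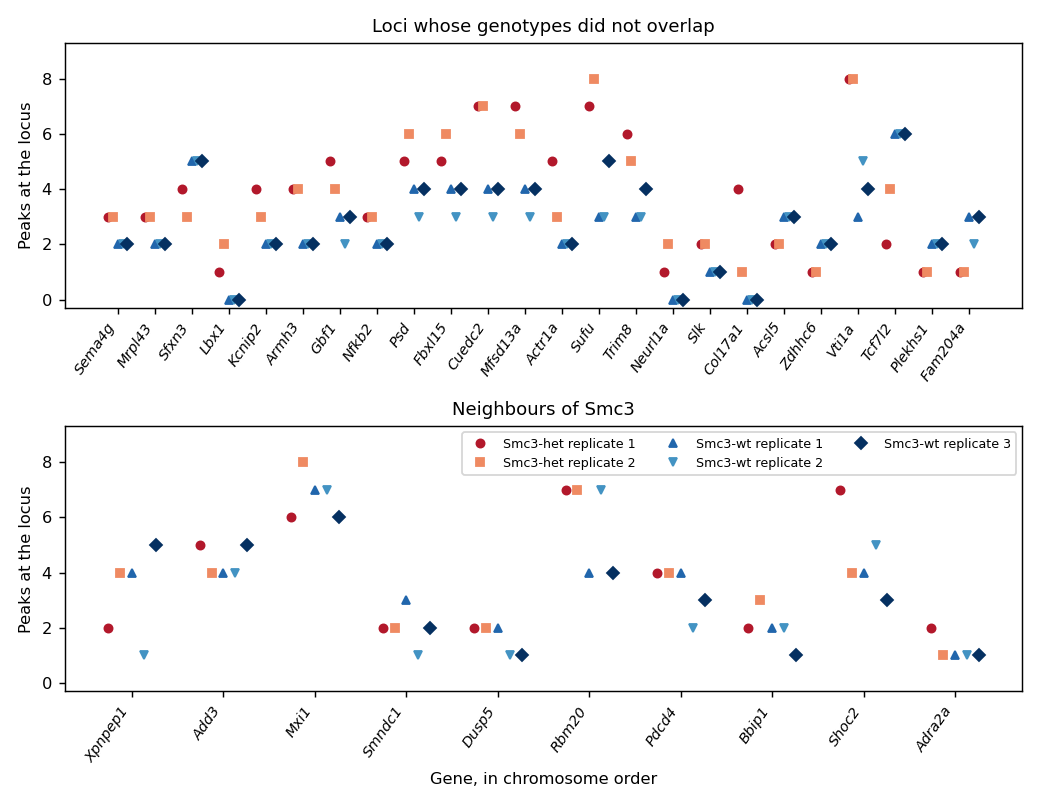
Peaks at a gene and 20 kb on each side in the equal-size lists, for the 24 flank loci whose genotypes did not overlap (top) and for the 10 neighbours of Smc3 (bottom), in chromosome order. In the top row Smc3-het lies above Smc3-wt at 18 loci and below at 6, and in the bottom row the genotypes overlap at every locus.

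At each of the 10 neighbours of Smc3 the genotypes overlapped, although the sum over their loci did not. It was 39 and 39 in Smc3-het against 35, 31 and 31, where a peak shared by overlapping loci counts once for each of them. None of the 10 was called higher or lower, against 5.34% and 4.62% of loci over the genome. Xpnpep1 had 2, 4, 4, 1 and 5 peaks, and Add3 had 5, 4, 4, 4 and 5. Mxi1, the gene of a MAX partner that opposes MYC, had 6, 8, 7, 7 and 6. Rbm20, the nearest gene above Smc3 at 15.2 kb, had 7, 7, 4, 7 and 4. On that side Pdcd4, the gene of a translation inhibitor, had 4, 4, 4, 2 and 3 peaks, and Adra2a, an adrenergic receptor gene, had 2, 1, 1, 1 and 1. Smndc1 with 2, 2, 3, 1 and 2, Dusp5 with 2, 2, 2, 1 and 1, Bbip1 with 2, 3, 2, 2 and 1 and Shoc2 with 7, 4, 4, 5 and 3 also overlapped. The order of the sums turned in full lists, where they were 39, 42, 71, 93 and 107.

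Of 6 genes of NF-kB and ubiquitin signalling, 3 had more peaks in Smc3-het (Nfkb2, Trim8 and Fbxl15, all in the 404 kb span) and none fewer, against 5.34% of loci higher over the genome and 8.52% on the rest of chromosome 19. These 3 share that span and are not separate observations. Chuk, which encodes the kinase IKK alpha, had 2, 3, 2, 2 and 3, and Btrc, the gene of the F-box protein that marks I-kappa-B for degradation, had 5, 7, 4, 3 and 5. The list summed to 25, 29, 17, 16 and 23, with a peak in overlapping loci counted once for each of them.

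Of 8 transcription and chromatin genes Sufu was higher and Tcf7l2 lower, beside genome shares of 5.34% higher and 4.62% lower. Ldb1, the gene of a looping cofactor of LIM domain proteins, had 3, 2, 3, 3 and 3 peaks, and Pcgf6 had 2 in each library. Of 8 blood and myeloid genes Nfkb2 and Slk were higher, beside the same 5.34%. Csf2ra, the alpha chain of the GM-CSF receptor and a myeloid gene, had 3, 2, 3, 3 and 3 peaks, with a peak within 1 kb of a gene end in 5 of 5. No library had a peak over its promoter window, even in full lists. Grk5, a kinase of G-protein-coupled receptors, had 6, 7, 10, 6 and 8 peaks. Neither gene separated the genotypes.

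Of 8 lipid genes Acsl5 was called lower, beside 4.62% of loci over the genome, and none higher. The desaturase genes Scd1, with 1, 3, 1, 2 and 2 peaks, and Scd2, with 3, 3, 3, 2 and 3, overlapped, as did the acyltransferase gene Gpam with 2, 1, 2, 2 and 3. None of 6 growth and translation genes was called in either direction. Eif3a, a translation initiation subunit, had 4, 3, 4, 3 and 3 peaks, and the nucleolar genes Nolc1 and Pdcd11 had 2, 2, 2, 2 and 2, and 3, 2, 3, 3 and 2. Npm3, a histone chaperone gene, had 2, 1, 1, 0 and 1.

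Of 13 genes of other organs Lbx1 and Col17a1, an epithelial collagen, were higher, beside 5.34% over the genome, with 10 of the 13 without a gene-end peak in any equal-size list. The list summed to 12 and 14 peaks against 5, 5 and 7. Pax2, a kidney regulator, had 1, 0, 0, 0 and 0, Pitx3, a lens and dopamine neuron factor, 2, 3, 2, 1 and 2, and the growth factor gene Fgf8 2, 1, 1, 0 and 1. In full lists the sum was 12 and 21 against 24, 59 and 58. The equal-size Smc3-het lists reach down to weaker peaks than the Smc3-wt lists, with a lowest -log10 p of 3.47 and 5.66 against 9.84, 10.4 and 14.4, and the part of this in these counts was not tested.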

How the data were processed

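Per the submitters' processing notes, the authors used Bowtie2, MACS2 and the mm10 build, with no version given. Each deposited list belongs to 1 library and was not pooled. It holds intervals, the coverage signal at the summit (pileup of fragments) and a fold enrichment, a ratio against local background per the file headers. Another 2 deposited columns without a header hold, by their order and values, −log10 p and −log10 q. All are the authors' own scores for a peak.

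Computed here with Python 3.11.15, pandas 2.3.3, numpy 2.4.6 and scipy 1.17.1: the autosomes and both sex chromosomes were used; lists were cut to the 26885 strongest by −log10 p; intervals overlapping by at least 1 bp formed regions; a peak belonged to the flank by its midpoint. Background coverage is the commonest value of (pileup + 1) / fold − 1 in a list, since MACS2 adds a pseudocount of 1. The number of mapped fragments was not used here, so depth is known only through it. Gene ends (within 1 kb of either end) and promoter windows came from RefSeq tables of GRCm38.p6. These give no exons, so introns and exons were not told apart. Group means were compared by two-sided exact permutation tests over all 10 splits, with Benjamini-Hochberg adjustment over distance windows and over peak classes. Overlap, distance and counting steps were tested on simulated data.

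Genotypes and replicate numbers came from the sample titles. Replicate numbers pair nothing: the library names number the 5 libraries apart, from 1 to 5. The members and gene lists were chosen with earlier results of these data known. Named genes were the Smc3 neighbours, the first 4 members of each other list, the genes nearest to regions separating the genotypes and to the 10 strongest shared regions, and those at the edges of the flank. Further loci and regions were named after their counts were seen. Of the marker genes, 1 is not reported here by name. The alternatives were full, half-length, q-filtered and fold-ranked lists, other distances and comparators, and leaving out each library.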

Additional observations from a re-analysis of the deposited data

How the results depend on the processing

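Values are Smc3-het minus Smc3-wt, in percentage points unless named, and causes of changes were not tested. Full lists are longer in Smc3-wt, and q-filtered lists are unequal too. Precision is limited by 2 against 3 libraries and by windows with few peaks.

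The flank share of chromosome 19 peaks (0.28) became -1.05 in full lists, -0.44 at a −log10 q of at least 5, -0.33 in fold-ranked lists, -0.44 within 5 Mb of Smc3 and -0.39 for peaks away from gene ends, a choice added after seeing the data, and ran from -1.40 to 1.96 when 1 library was left out. The pileup difference (-0.18 log2) became 0.067 against other autosomes, 0.010 with the authors' fold and 0.042 over all peaks, shrank to -0.032 with means and -0.092 in half-length lists, and ran from -0.20 to -0.13 with 1 library left out.

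Regions in Smc3-wt alone (3) numbered 32 in full, 1 in half-length, 30 and 16 in q-filtered lists (5 and 10) and 6 in fold-ranked lists, with 9 to 14 when 1 library was left out. Regions in Smc3-het alone (8) numbered 0, 3, 1 and 0 in the first 4 of these lists and 6 in fold-ranked lists. These were 0%, 1.70%, 0.136%, 0% and 1.17%, against 0.0745%, 1.94%, 0.0751%, 0.0597% and 1.28% over the genome. They numbered 11 to 13 without 1 Smc3-wt library (2.55 to 2.96%, against 1.70 to 1.78%). Without Smc3-het replicate 1 or 2 they numbered 68 and 70 (16.5% and 16.9%, against 15.2% and 16.3%). The share found in every library (23.1%) was 7.38% in full, 37.5% in half-length, 13.9% at q 5 and 19.4% in fold-ranked lists, and 24.8 to 28.5% with 1 library left out. Flank bins that did not overlap (5) numbered 14 in full lists (77.8%), all lower in Smc3-het, against 84.8% of bins over the genome.

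By distance, the window 2 to 5 Mb below Smc3 became -0.76 in full lists and -0.036 at q 10. The window 1 to 2 Mb below became -0.30 and -0.073, and ran from -0.090 to 0.17 with 1 library left out. The window 0 to 1 Mb below became 0.20 in full and 0.030 in half-length lists, with -0.20 to 0.14. The window 0 to 1 Mb above became -0.32 in full lists, -0.68 at q 10 and -0.046 for gene-end peaks, with -0.029 to 0.45. The window 1 to 2 Mb above became -0.48 in full lists, -0.11 in half-length lists, -0.056 at q 10 and -0.015 for gene-end peaks, with 0.0089 to 0.18. The window 5 to 10 Mb above became 0.36 at q 10, with -2.44 to -1.17 when 1 library was left out. The window 5 to 10 Mb below kept its direction in all 11 alternatives (1.48 to 4.23), as did 2 to 5 Mb above, with -2.01 to -0.22 when 1 library was left out.

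Gene ends (0.17) became -1.43 at 2.5 kb and ran from -1.25 to 1.59 with 1 library left out. The gene-end class became 16.0 in full, 2.49 in half-length and 25.1 in q 10 lists, with -0.95 to 0.15. The gene-body class became -4.26, -4.59 and -17.8 in these lists, and the class between genes 2.09 in half-length lists. Peak width became -1.75 bp in half-length and -35.3 bp in q 10 lists, with -27.3 to 35.2 bp. In full lists the summed peaks of gene lists became -49.8 (Smc3 neighbours), -10 (NF-kB), -27.2 (transcription), -33.5 (blood), -19.2 (lipid) and -30.5 (other organs).

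The labels' replicate numbers pair no mice, and with a replicate block over 2 pairs the smallest possible p is 0.5. The block gave -0.22 for the flank share, 0.14 and -0.029 for 0 to 1 Mb below and above Smc3 and -2.50 bp for peak width, each opposite in sign to the unblocked value, and -0.19 log2 for the pileup difference; the other blocked values kept their direction.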

Other observations

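Each of the 5 libraries had the same highest flank peak, at the last region of chromosome 19, and its pileup over background was 492, 866, 966, 841 and 1157 times. Its fold enrichment over local background was much lower, at 36.6, 35.2, 37.5, 37.7 and 37.5, and the reason was not tested. No protein-coding gene lies within 100 kb of it, and it is 1 of the 109 shared regions behind the medians above.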
